A study of Mus musculus and Rattus norvegicus with 24 samples.

Results

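Dystrophin and its glycoprotein complex were followed through 8 genes, Dmd, Utrn, Dag1, Sgca, Sgcb, Sgcd, Sntb1 and Dtna, of the 54532 genes in the mouse heart table. The genes were taken by name. They were chosen by measured values, because Dmd was already known to be low in cKO hearts with sham surgery. The sham comparison was taken as the one that chose Dmd, and is given as a description with no test. Whether the other hearts had a part in the choice is not known. All 8 passed the filter on low counts, which kept 15535 genes. In the table of rat cells, which held 17301 gene names, 7 of them were found, and Dtna was not analysed there.

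The 18 heart libraries fell into 6 groups of 3. Sample titles name each heart ctrl (control) or cKO (a conditional knockout, of ATF4), and mice of both kinds had either sham surgery or transverse aortic constriction (TAC), a narrowing of the aorta that overloads the heart, lasting 3 or 7 days. A characteristic of the cKO samples names ATF4 overexpression instead, which goes against the titles. The Cre driver, the strain, the age and whether each library was a separate animal are not stated in the labels, so p-values measure the spread between these libraries, which may in part be technical. The other 6 libraries were NRVM, ventricular muscle cells isolated from newborn rats and grown with bromodeoxyuridine, which were given an adenovirus for GFP (adGFP, n = 3) or for ATF4 (adATF4, n = 3) in serum-free medium.

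Dystrophin is a rod-shaped protein under the muscle membrane that ties the actin skeleton to a membrane complex, and through it to the matrix. Dystroglycan is the laminin receptor of that complex, the sarcoglycans stabilise it beside dystroglycan, and the syntrophins and dystrobrevins are scaffolds on its inner face. Utrophin is a close relative of dystrophin that can take its place. Loss of dystrophin or of a sarcoglycan causes muscular dystrophy, often with heart disease, in humans. ATF4 is a transcription factor of the stress response, whose known targets include amino acid enzymes and tRNA synthetases.

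The bases before the start of Dmd and Sgca are shown first, as 2 of the genes that the genotype results turn on and whose RNA also differed in the rat cells. Sntb1 met both conditions too, but no window was available for it. The RefSeq table of GRCm38.p6 gave windows for 6 of the 8 genes, 8 windows in all, each holding 250 bases before and 50 after a start. The 250 bases before the start are printed, in the direction of transcription. Capitals mark matches to CANNTG, the E-box. The Dmd window, at chrX:82948620-82948869 on the plus strand, ends at the base before the deposited start of the gene, and the Sgca window, at chr11:94976328-94976577 on the minus strand, does the same.
Dmd: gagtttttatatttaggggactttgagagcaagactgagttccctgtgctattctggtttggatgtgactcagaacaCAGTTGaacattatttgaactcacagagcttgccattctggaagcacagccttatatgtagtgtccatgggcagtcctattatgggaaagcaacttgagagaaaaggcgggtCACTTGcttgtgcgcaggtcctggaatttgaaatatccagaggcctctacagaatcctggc
Sgca: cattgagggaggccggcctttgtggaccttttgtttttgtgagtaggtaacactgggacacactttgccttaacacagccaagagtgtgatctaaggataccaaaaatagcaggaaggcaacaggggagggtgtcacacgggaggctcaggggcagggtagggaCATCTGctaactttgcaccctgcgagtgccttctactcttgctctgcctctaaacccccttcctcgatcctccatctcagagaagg

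On both strands of the 300-base windows 3 motifs were searched, and no overlap between them was found in these 2. TGATGNAA, a form of the composite element that ATF4 binds with C/EBP partners, was in 3.971% of the 32817 RefSeq windows, and TGACGTCA, the cyclic AMP response element, was in 1.792%. Neither was found in the windows of Dmd or Sgca. CANNTG was in 72.32% of all windows. In the Dmd window it began at bases -173, -61 and 40 from the start, and in the Sgca window at -86 and 27. A second RefSeq start of Dmd lies inside the gene, with a window at chrX:85048045-85048344 that held none of the 3 motifs. The deposited counts pool all Dmd transcripts, so full-length and short forms cannot be told apart.

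ATF4 itself was checked before the complex. Atf4 RNA, in CPM (counts per 1e+06 of the library total after TMM scaling),, was 56.5 in ctrl and 23.5 in cKO sham hearts, 85.4 and 25.6 at TAC 3 d, and 73.6 and 28.5 at TAC 7 d. The highest cKO library, 31.3, was below the lowest ctrl library, 34.3. Mouse libraries held 15106975 to 18112798 counts. Xist stood at 0.0637 to 0.704 CPM and the Y-linked Ddx3y at 56.0 to 91.6 CPM in the 18 libraries, so the X-linked Dmd gene was compared between hearts alike in both measures. All 12 ventricular cardiomyocyte markers were detected, and their summed level was 50830 to 104900 CPM. On the principal components 3 libraries lay apart from their groups: replicate 3 of ctrl TAC 3 d, and replicate 2 of cKO at both TAC times. Mitochondrial genes took 10.6% of the counts in the first of these and 14.5% to 23% in the others.

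Per gene length the complex fell into an abundant and a scarce group. The median deposited FPKM over the 18 hearts was 85.1 for Dag1, which encodes dystroglycan, 61.1 for Sgca (α-sarcoglycan) and 37.9 for Sgcb (β-sarcoglycan). It was 3.93 for Dtna (α-dystrobrevin), 3.85 for Utrn, 3.84 for Dmd, 1.88 for Sntb1 (β1-syntrophin) and 0.785 for Sgcd (δ-sarcoglycan). In ctrl sham hearts Dmd was at 3.87 ± 0.0469 FPKM (SD, n = 3), Dtna at 3.86 ± 0.364 and Utrn at 3.74 ± 0.198, which differ by less than their spread. In cKO sham hearts Dmd was at 2.13 ± 0.116 FPKM and Utrn at 3.67 ± 0.482. The deposited length of Dmd is 23801 bases, which counts every annotated exon, so its level per length is understated. The deposited lengths of Utrn, Dtna and Sgcd are 17108, 16930 and 8257 bases, and their levels may be understated too, by amounts not known. Levels between genes therefore hold only relative to these lengths. The same is true of the ratio of Utrn to Dmd FPKM given below. Sgcd rested on 68 to 248 counts a library and Sntb1 on 81 to 390, against 744 to 2157 for Dmd.

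**Figure D1:**
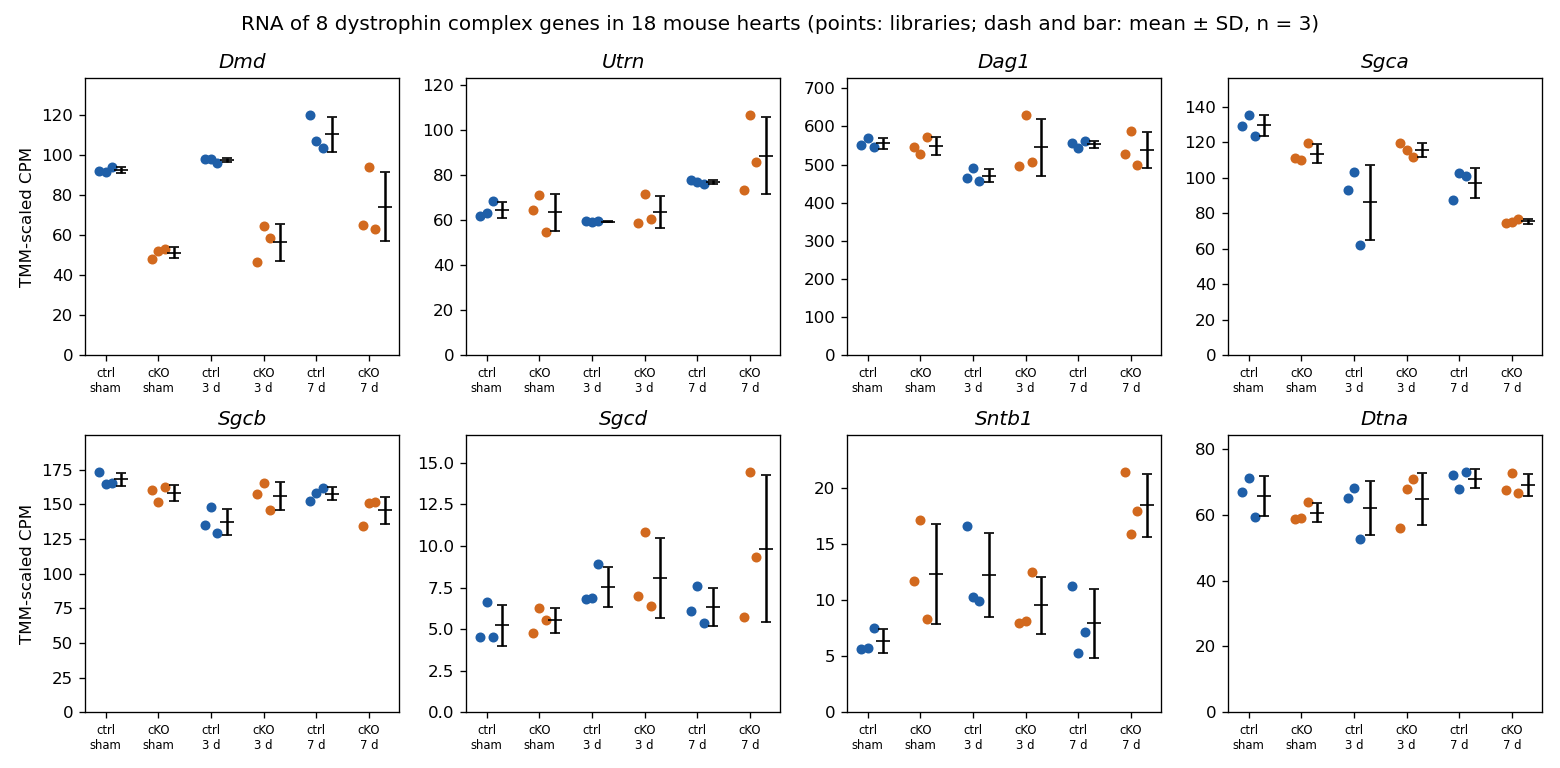
TMM-scaled CPM of the 8 genes in each mouse heart library (points, blue for ctrl and orange for cKO), with the mean and SD of each group of 3 beside them; every axis starts at 0. The Dmd points of cKO lie below those of ctrl in all 3 conditions, while the Sgca points are lower in ctrl at TAC 3 d and lower in cKO at TAC 7 d.

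Dmd lies on chromosome X, 82948870 to 85206141, on the plus strand (ENSMUSG00000045103, GRCm38 positions as deposited). In sham hearts the 3 ctrl libraries held 91.9, 91.6 and 94.1 CPM of Dmd and the 3 cKO libraries 48.0, 52.0 and 53.3. The groups stood far apart, with a mean of 92.5 ± 1.37 in ctrl and 51.1 ± 2.78 in cKO, or 55.2% of the ctrl level. These are the values taken as those that chose the gene. Of all genes 0.0193% were called in that comparison, 3 of 15535, where called means an adjusted p under 0.05 in edgeR's quasi-likelihood test with Benjamini-Hochberg adjustment over all genes, and Dmd, chosen for it, was 1 of the 3, from which nothing is read. Sntb1 stood at 6.33 ± 1.06 CPM in ctrl sham and 12.4 ± 4.45 in cKO sham. The other 6 genes differed between the sham groups by 0.19 or less on the log2 scale.

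The hearts at TAC 3 d are other libraries than the sham hearts. Dmd was chosen with earlier results of these data known, so its p-value here may not be free of that choice. There Dmd was at 98.1, 98.1 and 96.1 CPM in ctrl and at 46.4, 64.3 and 58.5 in cKO. No cKO library reached the lowest ctrl library. The cKO mean was 57.9% of the ctrl mean, a log2 difference of -0.79 ± 0.14 (SE; edgeR adjusted p = 0.0023). The difference kept its call when any 1 of the 6 libraries was left out, with values from -0.89 to -0.67, and missed it when these 2 groups were fitted alone (adjusted p = 0.055). The authors' deposited table gives -0.80 with an adjusted p of 0.000338.

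Among the 8 genes, 2 were called at TAC 3 d, Dmd lower and Sgca higher in cKO, against 17.1% of all genes called, which is 25% against 17.1%. The median log2 difference was 0.09 over the 8 genes and 0.02 over all genes. Marker levels of other cells differed between these groups: the 8 fibroblast markers summed to 3046 to 15690 CPM in ctrl and 1484 to 1658 in cKO, the 8 macrophage markers to 279 to 646.7 and 208.8 to 284.2, and the cardiomyocyte markers to 50830 to 86750 and 89600 to 100200, and their part in the result was not tested. In bulk tissue, fewer cells of a type and less RNA per cell cannot be told apart. Per 1000 CPM of the cardiomyocyte markers, Dmd was 1.13 to 1.89 CPM in ctrl and 0.518 to 0.641 in cKO.

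At TAC 7 d the ctrl libraries held 120.1, 107.1 and 103.5 CPM of Dmd and the cKO libraries 65.0, 93.8 and 63.2. The groups did not overlap, but cKO replicate 2, which lay apart from its group on the principal components, came within 9.71 CPM of the lowest ctrl library. The cKO mean was 67.2% of ctrl, and the log2 difference of -0.57 ± 0.14 was not called (adjusted p = 0.0877). With that cKO library left out, the value was -0.78 and called (adjusted p = 0.0255). Per 1000 CPM of the cardiomyocyte markers the groups overlapped, at 1.04 to 1.39 in ctrl and 0.779 to 1.43 in cKO. In the authors' deposited table the difference is -0.58 with an adjusted p of 0.0314.

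None of the 8 genes was called at TAC 7 d by edgeR, where 0.257% of all genes were. At an unadjusted p under 0.05 there were 4 of 8 and 2680 of all 15535 genes, and DESeq2 called 2, Dmd and Sntb1, and 492 of all genes. Whether the Dmd difference changed with TAC could not be told: the change of the genotype difference from TAC 3 d to 7 d was 0.22 ± 0.19 on the log2 scale (adjusted p = 0.449).

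**Figure D2:**
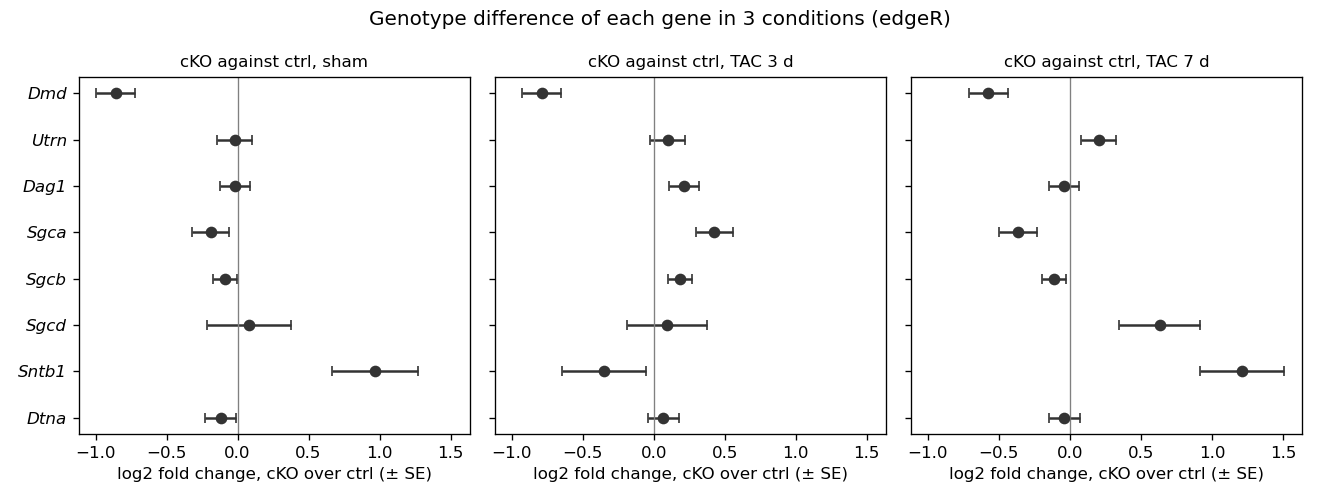
Log2 fold change of each gene in cKO over ctrl hearts (point) with its standard error (bar) from edgeR, in sham hearts and at 3 and 7 days of TAC. Dmd lies left of 0 in all 3 panels, at -0.86, -0.79 and -0.57, and Sgca and Sntb1 change sides between 3 and 7 days.

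Utrn, on chromosome 10 from 12382188 to 12869365, did not differ between genotypes past the threshold. In sham hearts it was 61.7, 63.0 and 68.4 CPM in ctrl and 64.4, 71.1 and 54.6 in cKO. At TAC 3 d it was 59.5, 59.1 and 59.4 in ctrl and 58.6, 71.6 and 60.3 in cKO, a log2 difference of 0.10 ± 0.12 (adjusted p = 0.624). After 7 d it was 77.9, 76.7 and 76.0 in ctrl and 73.1, 106.7 and 85.6 in cKO, a difference of 0.20 ± 0.12 (adjusted p = 0.412). The groups overlapped in each condition, with the highest value in cKO TAC 7 d replicate 2.

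Since Dmd was lower and Utrn was not, the ratio of Utrn to Dmd FPKM was higher in every cKO library than in every ctrl library, which is given as a description since Dmd was chosen on its level in the sham hearts. It was 0.967 ± 0.0398 in ctrl and 1.73 ± 0.265 in cKO sham hearts, 0.847 ± 0.0112 and 1.58 ± 0.164 at TAC 3 d, and 0.973 ± 0.0626 and 1.68 ± 0.180 at TAC 7 d. The cKO libraries ran from 1.43 to 1.90 and the ctrl libraries from 0.838 to 1.02.

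**Figure D3:**
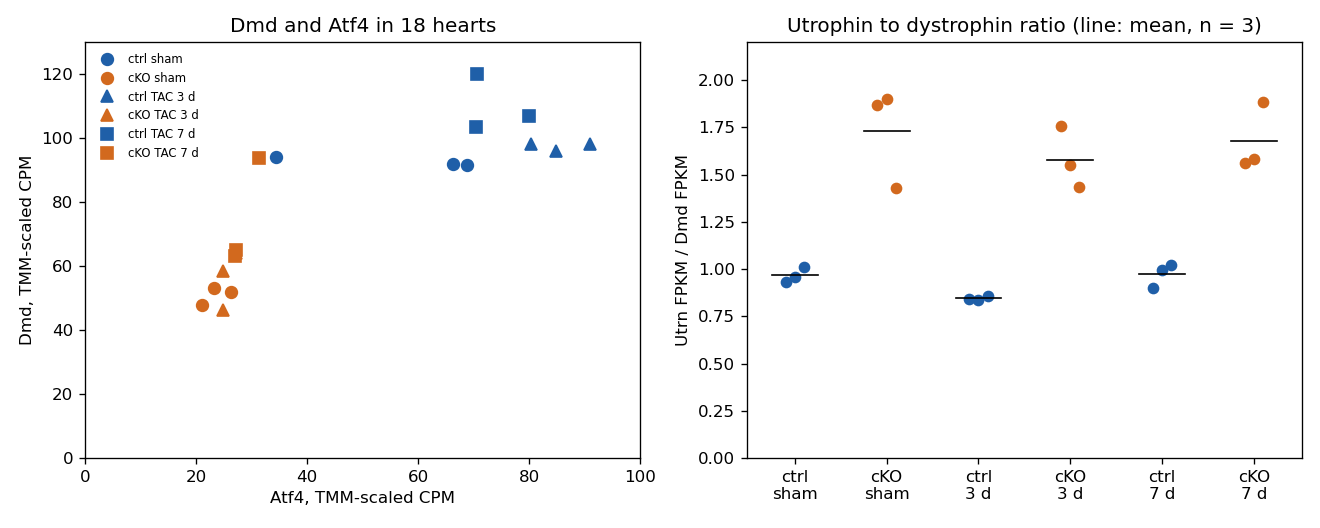
Left, Dmd against Atf4 in the 18 hearts, both in TMM-scaled CPM, with blue for ctrl, orange for cKO and the marker shape for the surgery. Right, the ratio of Utrn to Dmd FPKM in each library, with a line at each group mean; the cKO libraries lie at 1.43 or higher and the ctrl libraries at 1.02 or lower.

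The genes whose log2 CPM followed Dmd most closely over the 18 hearts were Atf4, with a Pearson correlation of 0.868, the alanyl-tRNA synthetase Aars (0.820), the exocyst subunit Exoc2 (0.817), the tyrosyl-tRNA synthetase Yars (0.806) and the adhesion receptor Adgre5 (0.768). These values mostly restate the difference between genotypes, on which Dmd was chosen. After each group's mean was removed they were 0.17, 0.0929, -0.321, 0.255 and -0.0539. For Atf4 the correlation was 0.225 within the 9 ctrl hearts and 0.848 within the 9 cKO hearts, with the means of the sham and TAC groups left in. In cKO sham, TAC 3 d and TAC 7 d hearts the mean CPM was 51.1, 56.4 and 74.0 for Dmd and 23.5, 25.6 and 28.5 for Atf4. Replicate 2 of cKO TAC 7 d held the highest cKO level of both genes, 93.8 and 31.3 CPM. The cKO sham hearts that chose Dmd are among the 9. The ctrl sham library with the lowest Atf4, 34.3 CPM, had 94.1 CPM of Dmd. The genes beside Dmd were also read. Within 1 Mb, Gk, glycerol kinase, and Tab3 were not called in any genotype comparison by edgeR, with log2 differences from -0.21 to 0.31, and 5430427O19Rik was called lower at TAC 3 d (-2.16 ± 0.52, adjusted p = 0.0117).

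Sgca, on chromosome 11 from 94962791 to 94976327, encodes α-sarcoglycan. In sham hearts its 3 ctrl libraries held 129.3, 135.6 and 123.6 CPM and its 3 cKO libraries 111.0, 110.0 and 119.7. At TAC 3 d ctrl stood at 93.0, 103.0 and 62.4, and cKO at 119.8, 115.6 and 111.9. After 7 d ctrl was at 87.5, 102.9 and 101.1 and cKO at 74.5, 75.1 and 76.7. So the lower group was ctrl at 3 d and cKO at 7 d, with no overlap at either time.

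By edgeR, Sgca was 0.43 ± 0.13 higher on the log2 scale in cKO at 3 d (adjusted p = 0.0361), and the 7 d difference was -0.37 ± 0.13 (adjusted p = 0.188). The authors' deposited table gives 0.41 with an adjusted p of 0.263 at 3 d. The 3 d call was lost in 5 of 6 fits that each left out 1 library, all but the one without replicate 2 of ctrl, and with replicate 3 of ctrl left out the value was 0.21 (adjusted p = 0.172). The change of the genotype difference from 3 d to 7 d, a comparison added after the data were seen, was -0.79 ± 0.19 (adjusted p = 0.0111), and it was called in each of 12 fits that left out 1 library, from -0.92 to -0.58. Of the 8 genes, 2 were called in that comparison, Sgca and Sntb1, against 21% of all genes, so 25% against 21%. The summed cardiomyocyte markers ran the same way, at 50830 to 86750 CPM in ctrl and 89600 to 100200 in cKO at 3 d, and at 86650 to 99690 in ctrl and 65530 to 81170 in cKO at 7 d, and their part in the result was not tested.

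Sntb1, on chromosome 15 from 55636388 to 55906949, encodes a syntrophin, an adaptor that binds dystrophin and dystrobrevin. It had the reverse order to Sgca. At TAC 3 d it was at 16.6, 10.2 and 9.90 CPM in ctrl and 7.98, 8.19 and 12.5 in cKO, which overlap. After 7 d it was at 11.3, 5.29 and 7.20 in ctrl and 21.5, 15.9 and 17.9 in cKO, which do not. The difference was -0.35 ± 0.29 at 3 d (edgeR adjusted p = 0.43) and 1.21 ± 0.30 at 7 d (adjusted p = 0.0934), and its change from 3 d to 7 d was 1.56 ± 0.42 (adjusted p = 0.0176), called in each of 12 fits that left out 1 library, from 1.30 to 1.93. DESeq2 called the 7 d difference (adjusted p = 0.00952), and the authors' deposited table gives 1.21 with an adjusted p of 0.00118.

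The remaining genes showed no called difference between genotypes by edgeR. Dag1, on chromosome 9 from 108204634 to 108263958, had group means of 471 to 555 CPM and a log2 difference of 0.21 ± 0.11 at TAC 3 d and -0.04 ± 0.11 at TAC 7 d. Sgcb, on chromosome 5 from 73632749 to 73647790, had group means of 138 to 168 CPM, with 0.18 ± 0.08 and -0.11 ± 0.08. Sgcd, on chromosome 11 from 46896253 to 47988969, had 5.24 to 9.84 CPM, with 0.09 ± 0.28 and 0.63 ± 0.28. Dtna, on chromosome 18 from 23415135 to 23659715, had 60.5 to 70.9 CPM, with 0.07 ± 0.11 and -0.04 ± 0.11. The intervals of Sgcd are wide, at 5.73 to 14.5 CPM within the cKO TAC 7 d group.

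TAC was then compared with sham within each genotype. These comparisons share their sham libraries with the genotype comparison, and Dmd is therefore given as levels: its mean in ctrl was 92.5, 97.4 and 110 CPM in sham, 3 d and 7 d hearts, and in cKO 51.1, 56.4 and 74.0. Counts over the 8 genes against sham take in Dmd, for which they are a description. In ctrl at TAC 3 d, 3 of the 8 genes were called by edgeR, or 37.5% against 27.2% of all genes. Sgca fell by 0.59 ± 0.13 on the log2 scale (adjusted p = 0.00439), Sgcb fell by 0.29 ± 0.08 (adjusted p = 0.0194) and Sntb1 rose by 0.95 ± 0.30 (adjusted p = 0.0291). Sgcb was at 173.8, 164.6 and 165.7 CPM in ctrl sham hearts and at 135.1, 148.0 and 129.7 at 3 d, which do not overlap. Between the same hearts the cardiomyocyte markers went from 96000 to 104900 CPM in sham to 50830 to 86750 at 3 d, with 3 of 12 called lower, and 6 of 8 fibroblast and 8 of 8 macrophage markers were called higher, and their part was not tested. Of the 3 genes, Sgca kept its call without each library in turn. With these 2 groups fitted alone, Sgca lost it (-0.58, edgeR adjusted p = 0.0688), as did Sgcb (edgeR adjusted p = 0.11). With library sizes alone in place of TMM, Sgcb was at -0.06 (adjusted p = 0.56). It lost its call without ctrl sham replicate 1 (adjusted p = 0.071), ctrl TAC 3 d replicate 1 (0.0626) or ctrl TAC 3 d replicate 3 (0.0918), and Sntb1 lost it without ctrl sham replicate 1 (0.0946), ctrl sham replicate 2 (0.0934) or ctrl TAC 3 d replicate 1 (0.126). In ctrl at TAC 7 d, edgeR called none of the 8 against 7.29% of all genes, with 1 of the 8 and 3780 of all genes at an unadjusted p under 0.05. DESeq2 called 1 of the 8, Sgca, and 1758 of all genes.

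In cKO hearts at TAC 3 d, edgeR called 0 of the 8 genes and 0% of all genes, with 0 of the 8 and 1311 of all genes at an unadjusted p under 0.05, and 0 of the 8 and 31 of all genes by DESeq2. At TAC 7 d, 21.8% of all genes were called, and so were 3 of the 7 genes other than Dmd, whose cKO sham libraries chose it. Sgca fell by 0.59 ± 0.13 (adjusted p = 0.00751), in all 3 libraries below the lowest sham library. The cardiomyocyte markers summed to 88430 to 97130 CPM in the cKO sham hearts and 65530 to 81170 in these, and the fibroblast markers to 858.4 to 1278 and 2600 to 4844, with 5 of 8 called higher, as were 7 of 8 macrophage markers, and their part in the result was not tested. Utrn rose by 0.48 ± 0.12 (adjusted p = 0.014), although cKO TAC 7 d replicate 2 carried much of it, and without that library the value was 0.31 (adjusted p = 0.0954), and it was also lost without cKO sham replicate 3 (adjusted p = 0.0711). Sgcd rose by 0.82 ± 0.29 (adjusted p = 0.0491), and without the same TAC 7 d library the value was 0.43 (adjusted p = 0.327). That call was also lost without any single cKO sham library or without cKO TAC 7 d replicate 3 (adjusted p = 0.078 to 0.145). The rank correlation of level with gene length was 0.103 to 0.248 in the TAC 7 d libraries and -0.3 to 0.00817 in the TAC 3 d libraries, and with gene length as an offset Utrn was at 0.25 (adjusted p = 0.116). The 2 responses to TAC differed between genotypes for none of the 8 genes by edgeR, against 0.669% of all genes at 3 d and 0% at 7 d. These interactions use the sham libraries that chose Dmd, so for Dmd their counts are a description. At an unadjusted p under 0.05 there were 3 of the 8 and 3290 of all genes at 3 d, and 0 of the 8 and 682 of all genes at 7 d. DESeq2 called 2 of the 8 and 863 of all genes at 3 d, and 0 and 1 at 7 d.

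Between the TAC times, edgeR called 0 of the 8 in ctrl against 14.8% of all genes, with 3 of the 8 and 4785 of all genes at an unadjusted p under 0.05. DESeq2 called 1 of the 8, Utrn, and 2864 of all genes. In cKO edgeR called 3 of the 8, or 37.5% against 19.5% of all genes. Utrn was higher at 7 d than at 3 d by 0.48 ± 0.12 (adjusted p = 0.0158), Sntb1 was higher by 0.95 ± 0.29 (adjusted p = 0.0336), and Sgca fell by 0.62 ± 0.13 (adjusted p = 0.00674). Dmd, in libraries other than the sham hearts, had a difference of 0.39 ± 0.14 that was not called (edgeR adjusted p = 0.0518). That value ran from 0.19 to 0.50 when 1 library was left out, lowest without cKO TAC 7 d replicate 2, with a call in 3 of 6 fits, and DESeq2 called it (adjusted p = 0.0381). With gene length as an offset the Utrn value was 0.18 (adjusted p = 0.282), and leaving out replicate 2 of cKO TAC 7 d gave 0.32 (adjusted p = 0.087), and the call was also lost without cKO TAC 3 d replicate 1 (adjusted p = 0.0698). The Sntb1 call was lost without cKO TAC 3 d replicate 1 or 2 or any single TAC 7 d library (adjusted p = 0.0565 to 0.121).

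In the rat myocytes, Atf4 was at 276 ± 31.1 FPKM with adGFP and at 2563 ± 143 with adATF4. Dmd stood at 43.0, 40.3 and 45.5 FPKM with adGFP and at 31.6, 33.3 and 36.3 with adATF4. The groups did not overlap, and Dmd was lower in the cells with added ATF4; in the hearts it was lower in cKO, where Atf4 was lower. The difference was -0.34 ± 0.10 on the log2(FPKM + 1) scale (limma adjusted p = 0.0184), or 0.786 times the adGFP level, and it lost its call without adATF4 replicate 1 (adjusted p = 0.0843). Of the 7 genes in the rat table, 3 were called, or 42.9% against 50.6% of all genes, so the count is no larger than the background.

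Sgca was at 65.3, 60.0 and 57.5 FPKM with adGFP and at 15.7, 26.0 and 21.0 with adATF4. Every adATF4 library was below every adGFP library, and the mean was 0.343 times that of adGFP (-1.52 ± 0.16, limma adjusted p = 3.05e-05). Sntb1 was at 6.01, 8.38 and 7.57 FPKM and at 15.1, 14.3 and 13.8, without overlap, 1.97 times higher with adATF4 (0.90 ± 0.15, limma adjusted p = 0.000655). Utrn, Dag1, Sgcb and Sgcd differed by -0.24, -0.12, -0.16 and -0.05 and were not called. The ratio of Utrn to Dmd FPKM was 0.432 ± 0.0759 with adGFP and 0.457 ± 0.0139 with adATF4.

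**Figure D4:**
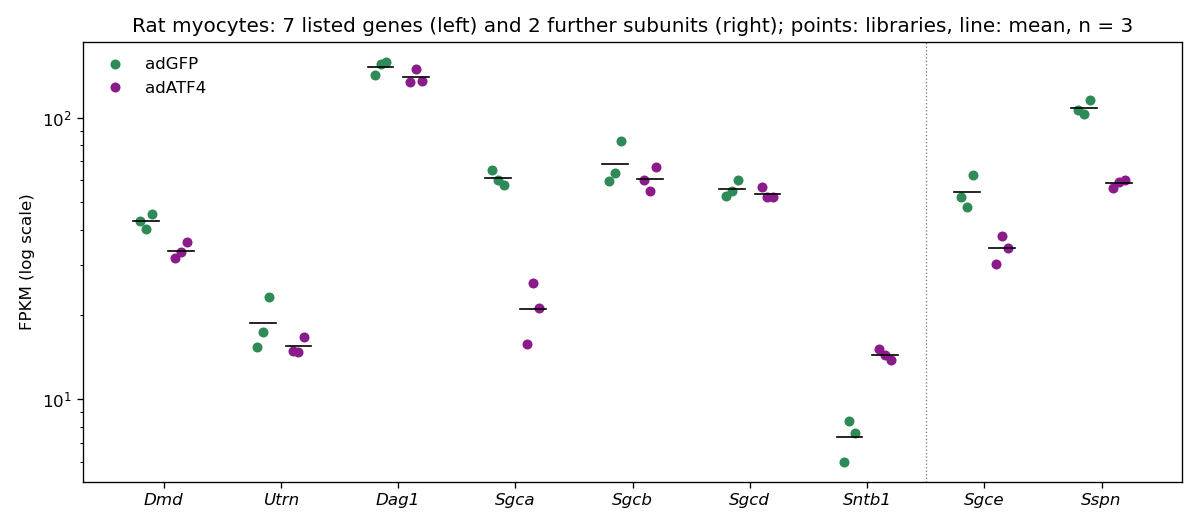
FPKM in each rat myocyte library on a log axis (points, green for adGFP and purple for adATF4), with a line at the mean of each group of 3, for the 7 genes on the left and 2 further subunits of the complex on the right. Sgca is lower with adATF4 at 15.7 to 26.0 FPKM, and Sntb1 is higher at 13.8 to 15.1 FPKM.

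Marker RNA of several cell types differed with the treatment as well, where 50.6% of all genes were called. The 8 fibroblast markers summed to 1426 to 1553 FPKM with adGFP and 507.8 to 542.1 with adATF4, with 7 of 7 tested lower. Of 11 cardiomyocyte markers 2 were higher and 6 lower, with sums of 24690 to 26640 and 22100 to 22250 FPKM. The 7 skeletal muscle markers summed to 360.6 to 417.3 and 124.9 to 148.1 FPKM. Their part in the differences of Dmd, Sgca and Sntb1 was not tested.

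Of 13 other subunits and partners of the complex, 9 were tested in the hearts and 7 in the rat cells. In the hearts, edgeR called 1 of the 9 at TAC 3 d, against 17.1% of all genes. This was Sgce, which encodes ε-sarcoglycan, a form found outside muscle as well. Sgce was at 13.0 ± 1.76 CPM in cKO and 19.7 ± 4.11 in ctrl (-0.60 ± 0.14, edgeR adjusted p = 0.0108). The fibroblast marker sums given above differed between the same groups, and their part was not tested. For the change of the genotype difference from 3 d to 7 d, 2 of the 9 were called, against 21% of all genes. Sgce was among them (0.98 ± 0.20, edgeR adjusted p = 0.00653). In ctrl hearts Sgce rose after 3 days of TAC (0.44 ± 0.14, adjusted p = 0.0278). In the rat cells 2 of the 7 were higher and 3 lower with adATF4, where 50.6% of all genes were called. Sspn, sarcospan, fell from 108 ± 6.13 to 58.5 ± 1.82 FPKM (-0.88 ± 0.09, limma adjusted p = 2.19e-05), and Cav3, muscle caveolin, from 236 to 158 FPKM (-0.59 ± 0.11, limma adjusted p = 0.00151).

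Genes that glycosylate dystroglycan so that it binds laminin were mostly not called in the hearts. In cKO at TAC 3 d, edgeR called 0 higher and 1 lower of 17 tested, against 17.1% of all genes. The 1 was Gmppb, GDP-mannose pyrophosphorylase B (-0.77 ± 0.18, edgeR adjusted p = 0.0111). In the rat cells 3 of 16 were higher and 5 lower, a share near the 50.6% called among all genes, among them the O-mannose kinase Pomk, at 13.1 FPKM with adGFP and 4.91 with adATF4 (-1.26 ± 0.15, limma adjusted p = 8.19e-05), and Pomgnt1, at 50.3 and 86.2 FPKM (0.77 ± 0.09, limma adjusted p = 7.72e-05). The matrix ligands of dystroglycan had 4 of 8 lower in cKO at TAC 3 d, where 17.1% of all genes were called, with a median of -0.48 against 0.02 over all genes, among them the laminin chains Lamb1 (-0.67 ± 0.14, adjusted p = 0.00502) and Lama4 (-0.61 ± 0.16, adjusted p = 0.0165), and the fibroblast and macrophage marker sums given above differed between the same groups.

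Among integrin and costamere genes, a further link between the muscle skeleton and the matrix, 1 was higher and 3 lower of 16 in cKO at TAC 3 d, against 17.1% of all genes called, including the laminin-binding integrin Itga7 (-0.59 ± 0.14, adjusted p = 0.0117). In the rat cells, where 50.6% of all genes were called, 8 of 14 were higher with adATF4 and 1 lower, and Itga7 was at 72.2 ± 7.20 FPKM with adGFP and 125 ± 13.3 with adATF4 (0.78 ± 0.11, limma adjusted p = 0.000211). Of 12 membrane repair and caveolar genes, 1 was higher and 5 were lower in cKO at TAC 3 d, including dysferlin, Dysf (-0.54 ± 0.11, adjusted p = 0.00436), and annexin A2, Anxa2 (-1.01 ± 0.19, adjusted p = 0.00312), against the same 17.1% and between the groups whose fibroblast and macrophage marker sums differed, whose part was not tested. In the rat cells 2 of the 12 were higher and 6 lower.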

How the data were processed

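Per the file headers, the authors deposited raw counts and FPKM of each gene for 18 mouse hearts, a gene length in bases (other), and log2 fold changes with adjusted p-values of their own comparisons, whose test is not named. For 6 rat cultures the authors deposited FPKM, without total reads. Bowtie 0.12.2 and mm9 appear, with no role, in the submitters' processing notes; gene positions in the mouse table are those of GRCm38. Neither the counting tool nor its strand setting is stated. A further 6 columns beside the rat data matched no sample and were not used, and 26 rat names that were dates were dropped.

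For the mouse counts, edgeR 4.0.16 (R 4.3.3) was used with filterByExpr, TMM scaling and 1 quasi-likelihood model of 6 groups over all 18 libraries, which left 15535 genes. Rat values were tested with limma 3.58.1 (trend) on log2(FPKM + 1) for the 10571 genes that reached 1 FPKM in 3 or more libraries; that scale understates the change of low genes. Tests were two-sided, p-values were adjusted by Benjamini-Hochberg over all genes, and 0.05 was the threshold. DESeq2 1.42.0, other scalings, no filter, a gene length offset, a replicate block, groups compared alone and leaving out libraries were alternatives. Both fits were tested on simulated data.

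The genes and lists were chosen with earlier results of these data known. Named genes were the 8 members, Atf4, up to 3 called genes per list with the smallest adjusted p in 4 comparisons, and the 5 most correlated with Dmd; neighbours of Dmd were added. Lists covered the other subunits, dystroglycan glycosylation, matrix ligands, integrins and costameres, membrane repair, and cell markers; 1 listed gene is not reported here. The summed CPM of further marker lists in the 18 hearts ran from 713.6 to 1320 (endothelial), 129.3 to 342.8 (smooth muscle), 430.7 to 1613 (skeletal muscle, of which Ckm was 99.5%), 4.246 to 14.79 (Schwann cell), 125.2 to 4033 (atrial, of which Nppa was 99.8%) and 0 to 0.8178 (adipocyte).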

Additional observations from a re-analysis of the deposited data

Results flagged for a closer look

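The genotype difference of Sgca at TAC 7 d differed from that at TAC 3 d by -0.79 on the log2 scale (edgeR adjusted p = 0.0111), since ctrl held the lower level at 3 d and cKO at 7 d, in 3 of 3 libraries each time. For Sntb1 the same change was 1.56 (edgeR adjusted p = 0.0176), with cKO above ctrl in 3 of 3 libraries at 7 d and overlapping groups at 3 d. The comparison was added after the data were seen, and 21% of all genes were called in it.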

How the results depend on the processing

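Of 1652 values of single genes under the alternatives, 1458 kept their direction and their side of the threshold, 61 fell short of it, 32 passed it, and 101 changed sign without being called. Only values called in the main fits could fall short, and most of the 1652 belong to values that were not called there. No called value turned its direction. Dmd stayed lower in cKO, at -1.02 to -0.67 at TAC 3 d and -0.78 to -0.48 at TAC 7 d. In sham hearts, whose values chose Dmd, it ran from -0.89 to -0.81, which is a description. The number of the 8 genes called moved as follows, and the cause was not tested. In the sham hearts, whose values chose Dmd and where the counts are a description, it was 1, but 0 with library sizes alone, 2 with no filter, 0 with the replicate block and 0 to 0 without 1 library. At TAC 3 d it was 2, but 1 with library sizes alone, 1 with the gene length offset, 1 with the replicate block and that offset, 1 without the 3 libraries apart, 0 with these groups alone and 1 to 2 without 1 library. At TAC 7 d it was 0, but 2 with no filter, 2 with DESeq2, 1 with the offset, 1 with the replicate block and offset, 2 without the 3 libraries and 0 to 1 without 1. For TAC against sham it was 1 in ctrl at 3 d with the groups alone and 1 to 3 without 1 library, against 3 as reported. In ctrl at 7 d it was 1 with DESeq2 and 2 with the groups alone, against 0. In cKO at 7 d it was 1 with the offset, 2 with the replicate block and offset, 2 with the groups alone and 1 to 4 without 1 library, against 4. Those 4 are Dmd and the 3 genes reported above. Counts against sham and for the interactions take in Dmd, whose sham libraries chose it, and for Dmd they are a description. For TAC 7 d against 3 d in ctrl it was 1 with no filter, DESeq2, the replicate block or without the 3 libraries, against 0, and in cKO 1 with the replicate block and offset and 1 to 3 without 1 library, against 3 as reported. For the interaction at 3 d it was 2 with no filter or DESeq2 and 0 to 1 without 1 library, against 0. Other alternatives stayed within 1.5 times these counts. In the rat cells it was 2 to 3 without 1 library.

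Same-numbered libraries did not clearly deviate together (correlations -0.392 to 0.239, and 0 of 16 pairs of groups with every value above 0.1). The main fits therefore used no pairing by number, although groups of 3 cannot exclude a weak one. With the replicate block, 0 of the 8 genes were called in sham hearts, and Utrn from 3 to 7 d in ctrl was called (edgeR adjusted p = 0.0464).

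Over all genes, the sham comparison called 3, but 16 by DESeq2, 67 with no filter, 31 with the groups alone and 0 with the replicate block. TAC 3 d called 2655, but 747 without the 3 libraries, 114 with the groups alone and 953 without cKO TAC 3 d replicate 2. TAC 7 d called 40, but 492 by DESeq2, 1149 with no filter, 258 without the 3 libraries, 24 with the replicate block and 5 without cKO TAC 7 d replicate 2. TAC against sham called 4225 in ctrl at 3 d (2310 without ctrl TAC 3 d replicate 3), 1132 at 7 d (87 without ctrl sham replicate 1, 2569 with the groups alone), and in cKO 0 at 3 d (219 with no filter) and 3380 at 7 d (1353 without cKO TAC 7 d replicate 2). From 3 to 7 d the counts were 2293 in ctrl (39 with the groups alone) and 3037 in cKO (1245 without cKO TAC 3 d replicate 1). The interactions called 104 at 3 d (863 by DESeq2, 0 with the groups alone) and 0 at 7 d (96 with no filter), and the change from 3 to 7 d 3266 (1270 without the 3 libraries). Library sizes alone shifted the median of all genes by -0.222 at TAC 3 d, where higher calls went from 45.2% to 15.8%, and by 0.317 for the change from 3 to 7 d (52.4% to 83.3%).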
